A study of Homo sapiens with 2 samples.

Results

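The BCL2 family of apoptosis regulators was examined in HCT116 cells, a line from a human colorectal carcinoma, labelled CREB1 wild-type or CREB1 knockout. The 10 members were taken by symbol, through their Ensembl identifiers, from a table of 57820 gene identifiers, and each of the 10 matched exactly 1 row. The comparison was between 1 library from a CREB1 knockout line, called KO, and 1 library from CREB1 wild-type cells, called WT. Per the labels, the KO line was grown from a single selected clone after transfection of a PX461 plasmid that carries a nickase form of Cas9 and guides against CREB1. Both were kept in DMEM with fetal bovine serum, and the labels do not say whether the WT cells were themselves cloned. RNA was isolated with RNAzol, depleted of ribosomal RNA and sequenced with strand-specific paired-end libraries. The question was how expression of the family differs between cells labelled as knockout and as wild-type for CREB1, a transcription factor of cAMP signalling.

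Members of this family decide whether the outer mitochondrial membrane stays closed during stress. Anti-apoptotic members (BCL2, BCL2L1 and MCL1) bind and restrain the effectors BAX and BAK1, which otherwise form pores that release cytochrome c and start the caspase cascade. BH3-only members (BID, BIK, BBC3, PMAIP1 and HRK) share with the others the BH3 helix, with which they occupy the groove of the anti-apoptotic proteins or act on the effectors directly. Much of this control is exerted on the proteins, through cleavage, phosphorylation and degradation, and is not visible in RNA counts.

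The BH3 segment is what the members share, so the codons that encode it are shown for each of the 10. A leucine followed by any 3 residues, then glycine or alanine and aspartate, was searched in the translated reading frame of a principal GENCODE 29 transcript of each gene, and each frame held exactly 1 match. The sequences run 5′ to 3′ along the coding strand, with the codons of the leucine, of the glycine or alanine and of the aspartate in capitals.
BCL2: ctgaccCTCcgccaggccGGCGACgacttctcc
BCL2L1: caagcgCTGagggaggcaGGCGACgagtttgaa
MCL1: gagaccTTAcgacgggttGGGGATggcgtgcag
BAX: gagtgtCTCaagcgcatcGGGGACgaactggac
BAK1: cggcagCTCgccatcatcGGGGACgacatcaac
BID: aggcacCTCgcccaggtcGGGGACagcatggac
BIK: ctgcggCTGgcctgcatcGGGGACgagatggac
BBC3: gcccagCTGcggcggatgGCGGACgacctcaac
PMAIP1: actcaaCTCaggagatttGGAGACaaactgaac
HRK: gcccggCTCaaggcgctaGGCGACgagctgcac
BBC3 differed from the other members in carrying an alanine codon (GCG) in place of glycine. The aspartate codon was GAC in 9 members and GAT in MCL1. The reading frames were of very unequal length, with 54 codons in PMAIP1 and 91 in HRK, against 350 in MCL1, and the matched leucine was codon 29 in PMAIP1, 37 in HRK and 213 in MCL1.

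The deposited expected counts, which are estimated reads per gene, summed to 31178312 in the KO and 34511071 in the WT library. CREB1 itself had 499 counts in KO and 614 in WT (log2 ratio -0.23, 95% counting interval -0.40 to -0.05), and a gene-level count cannot show small insertions or deletions, so it does not check the genotype. Of 8 epithelial markers, 6 were expressed, with a summed level of 3520 CPM in KO and 4017 CPM in WT. CDX1 was listed at 0 in both libraries, and VIL1 had 9 counts in KO and 12 in WT. Of 8 matched leukocyte, endothelial, fibroblast and liver markers, 5 were at 0 in both libraries and COL1A1 was the most abundant, with 89 counts in KO and 83 in WT. Each group has 1 library, so replicate spread and p-values could not be had, and the intervals cover counting error only, not variation between cultures or clones.

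HRK was much lower in KO cells, BCL2 was lower by a smaller amount from a low level, and the 8 other members lay within 1.5-fold. Among all expressed genes, as defined below, 88.9% lay within 1.5-fold. Levels are given as CPM, the count of a gene relative to the total of its library after the libraries were scaled to each other by the TMM method. A gene was taken as expressed at a mean of at least 1 CPM and was called higher or lower when it differed by at least 2-fold and its counting interval excluded no difference. All 10 members were expressed by this definition, and 1 of 10 was called lower (HRK) and 0 of 10 higher. HRK passed the expression limit through the WT library alone (0.50 CPM in KO and 2.23 CPM in WT). A gene that passes near the limit in this way is likely to show a large ratio, which limits the call. Among the 12886 expressed genes, 211 (1.64%) were called lower and 165 (1.28%) higher, together 2.92%. With total-count scaling the balance over all genes turned, with 167 lower and 201 higher, and the members' calls stayed at 1 and 0. Over the 10 members the median log2 ratio of KO over WT was -0.13, with 7 below 0, and over all expressed genes it was 0.01, with 48.8% below 0.

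**Figure D1:**
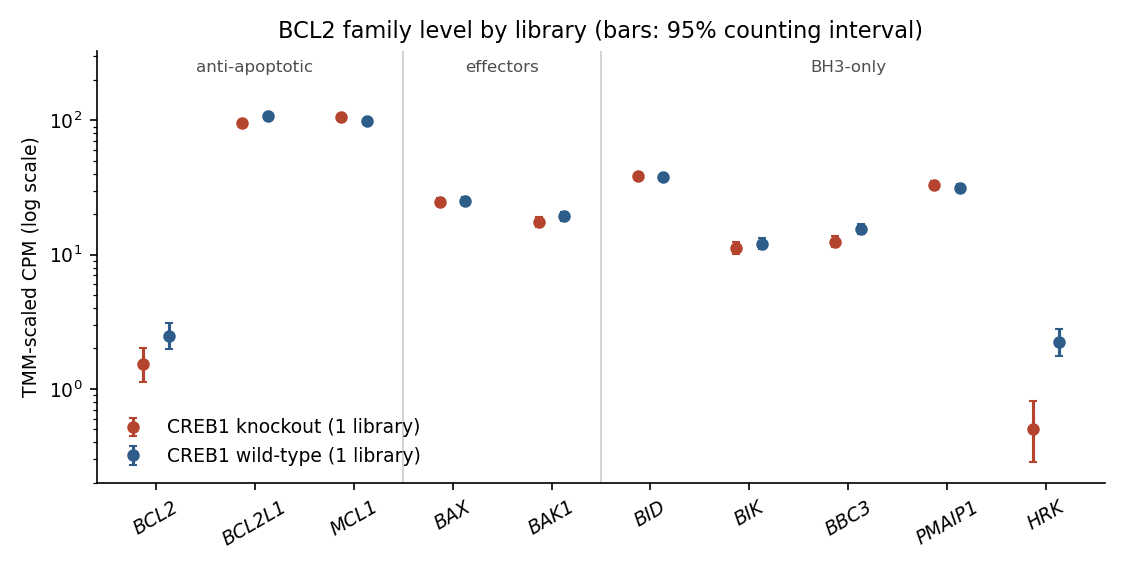
TMM-scaled CPM on a log scale for each member in the KO library (red, left) and the WT library (blue, right), with bars for the 95% counting interval. HRK stood at 0.50 CPM in KO and 2.23 CPM in WT, and the other members had close or overlapping points in both libraries except BCL2, at 1.53 CPM in KO and 2.5 CPM in WT.

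Of the anti-apoptotic members, BCL2L1 and MCL1 were abundant and BCL2 was scarce in both libraries. BCL2L1, which encodes the survival protein BCL-xL and, through another splice form, the shorter pro-apoptotic BCL-xS, had 3049 counts in KO and 3606 in WT, or 95.3 CPM in KO and 107 CPM in WT. Its log2 ratio was -0.17 (interval -0.24 to -0.10), a small difference, since 57.3% of expressed genes had ratios of that size or larger in either direction. Gene-level counts do not separate its splice forms. MCL1, whose short-lived protein is needed for survival by many cell types, had 3414 counts in KO and 3339 in WT, or 107 CPM in KO and 99.2 CPM in WT. It was the member with an interval wholly above 0, at a log2 ratio of 0.11 (interval 0.04 to 0.17), and 72.2% of expressed genes had a ratio as large or larger in either direction. BCL2, the founding member and a gene known as a CREB target in lymphocytes and neurons, had 49 counts in KO and 84 in WT, or 1.53 CPM in KO and 2.5 CPM in WT. BCL2 was 1.62-fold lower in KO (log2 ratio -0.70, interval -1.24 to -0.18), which was under the 2-fold limit and so not called. Ratios of this size or larger, in either direction, were found for 7.35% of expressed genes, and among the 2876 genes at a mean of 1 to 5 CPM, 10.2% had a log2 ratio as low as that of BCL2 or lower.

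The effectors were close to equal in both libraries. BAX, a mostly cytosolic protein that moves to mitochondria on activation, had 793 counts in KO and 841 in WT, or 24.8 CPM in KO and 25 CPM in WT, with a log2 ratio of -0.01 (interval -0.15 to 0.13). The sign of the BAX ratio turned with total-count scaling, to 0.06, and with totals that leave out the 5 highest genes, to 0.03. BAK1, which resides in the outer mitochondrial membrane, had 559.9 expected counts in KO and 652.5 in WT, or 17.5 CPM in KO and 19.4 CPM in WT. The log2 ratio of BAK1 was -0.15, with an interval of -0.31 to 0.02 that included no difference. With DESeq2 size factors the interval was -0.33 to -0.0019, which excluded it. Its counts were fractional, as they are where reads are divided among genes, and its processed copy BAK1P1 was listed at 12.1 expected counts in KO and 11.5 in WT.

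The BH3-only members differed most among themselves. HRK, the sensitizer Harakiri, which binds BCL2 and BCL-xL and is best known from neurons, had 16 counts in KO and 75 in WT, or 0.50 CPM in KO and 2.23 CPM in WT. It was 4.35-fold lower in KO, with a counting interval of 2.57-fold to 8.19-fold, and its log2 ratio of -2.12 ranged from -2.16 to -2.03 over the alternatives tried. A ratio of this size or larger, in either direction, was found for 0.334% of expressed genes. Low counts spread more widely, so HRK was also set beside the 2876 genes at a mean of 1 to 5 CPM. Of those, 149 (5.18%) were called lower and 90 (3.13%) higher, together 8.31%, and 0.730% had a log2 ratio at or below that of HRK. HRK, at a mean of 1.36 CPM, lies near the low end of this range. Most of these genes have more counts than HRK, so the shares may be low for its level, and a narrower range was not examined. BBC3, which encodes PUMA, a stress-induced activator of apoptosis, had 400 counts in KO and 526 in WT, or 12.5 CPM in KO and 15.6 CPM in WT. BBC3 was 1.25-fold lower in KO (log2 ratio -0.32, interval -0.51 to -0.13), and 31.2% of expressed genes had ratios at least this large in either direction.

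The remaining BH3-only members had intervals that included no difference with TMM scaling. PMAIP1, which encodes NOXA, a partner of MCL1 that is induced by the integrated stress response, had 1061 counts in KO and 1055 in WT, or 33.2 CPM in KO and 31.4 CPM in WT (log2 ratio 0.08, interval -0.04 to 0.21). BID, which caspase-8 cleaves to carry death receptor signals to mitochondria, had 1231 counts in KO and 1276 in WT, or 38.5 CPM in KO and 37.9 CPM in WT (log2 ratio 0.02, interval -0.09 to 0.14). BIK, a protein of the endoplasmic reticulum, had 357 counts in KO and 407 in WT, or 11.2 CPM in KO and 12.1 CPM in WT (log2 ratio -0.12, interval -0.32 to 0.09). For these 3 genes the intervals span less than 1.5-fold in either direction. With total-count scaling the log2 ratio of PMAIP1 was 0.15, with an interval of 0.03 to 0.28 that excluded no difference.

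**Figure D2:**
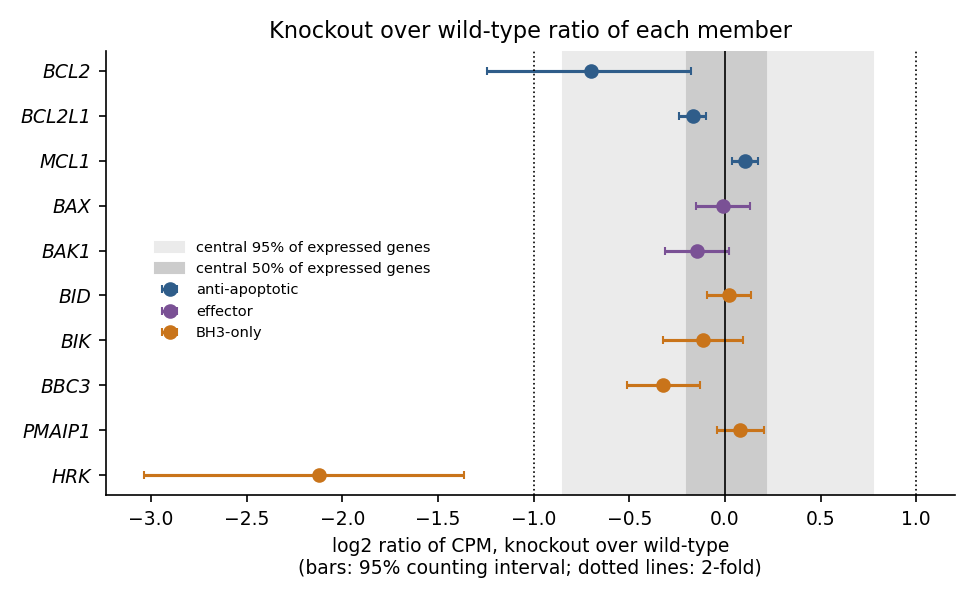
Log2 ratio of CPM, KO over WT, for each member, with bars for the 95% counting interval, over bands that hold the central 50% (-0.20 to 0.21) and the central 95% (-0.84 to 0.78) of expressed genes. HRK, at -2.12, is the member outside the wider band, and BCL2, at -0.70, lies inside it.

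At this depth many genes had counting intervals that excluded no difference, whatever the size of the ratio. These intervals lay wholly below 0 for 4 members (BCL2, BCL2L1, BBC3 and HRK) and wholly above 0 for 1 (MCL1). By the same rule 25.5% of expressed genes were lower and 26.4% higher, together 51.9%, so 5 of 10 members is a share near the background. With a limit of 1.5-fold and the interval, 2 members were lower (HRK and BCL2), and 0 higher, where 5.5% of expressed genes were lower and 5.25% higher, together 10.8%.

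**Figure D3:**
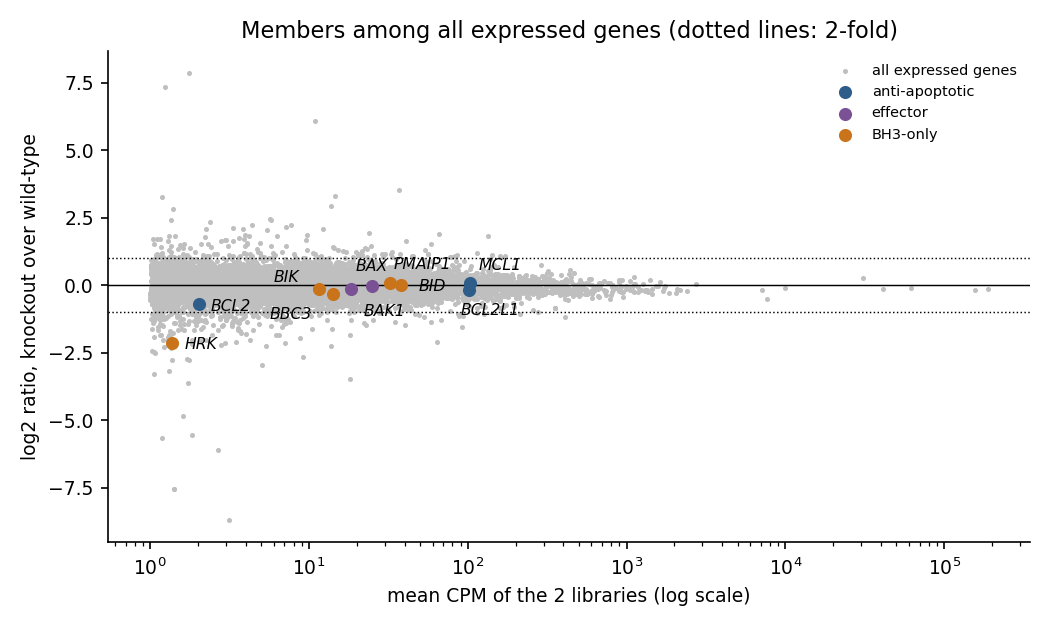
Log2 ratio of KO over WT against mean CPM of both libraries (log scale), with all 12886 expressed genes in grey and the members in colour by role. HRK (mean 1.36 CPM) and BCL2 (mean 2.01 CPM) lie at the low end of expression, where grey points spread most, and the other members lie near 0.

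Levels of different genes were compared per kilobase of exon, with the summed exon length of GENCODE 29. On this scale BCL2L1 was the highest member, with 28.8 CPM per kilobase in KO and 32.3 in WT, followed by MCL1, with 24.4 in KO and 22.7 in WT. Counting intervals of these 2 did not overlap in either library, and BCL2L1 also exceeded MCL1 with the longest transcript as length. The intervals do not cover error in the lengths, and by counts alone MCL1 was higher in KO (3414 against 3049 for BCL2L1). PMAIP1 came next, with 14.8 CPM per kilobase in KO and 14.0 in WT, then BIK, with 11.7 in KO and 12.7 in WT. In KO the intervals of PMAIP1 and BIK were apart, and in WT they overlapped. BAX (9.59 in KO and 9.66 in WT), BID (8.66 in KO and 8.53 in WT) and BAK1 (7.92 in KO and 8.76 in WT) followed, with intervals of BID that overlapped those of BAK1 in both libraries, and BBC3 stood below them at 3.93 in KO and 4.92 in WT. BCL2 and HRK closed the order. HRK was the lowest member in KO, at 0.0730 CPM per kilobase against 0.130 for BCL2, while BCL2 was the lowest in WT, at 0.212 against 0.325 for HRK, and in each library their intervals overlapped. The order between these ends depends on the length used. With the longest transcript in place of summed exons, BAX stood at 18.3 CPM per kilobase in KO and 18.4 in WT, above PMAIP1 at 17 in KO and 16.1 in WT, and BID stood at 15.4 in KO and 15.2 in WT, above BIK.

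The makeup of the family by role was alike in both libraries. Of the summed per-kilobase level of the 10 members, anti-apoptotic genes held 48.5% in KO and 48.4% in WT, effectors 15.9% in KO and 16.1% in WT, and BH3-only genes 35.6% in KO and 35.5% in WT. HRK held 0.0663% of this sum in KO and 0.285% in WT, so its difference hardly touches the shares. Within the anti-apoptotic share, BCL2L1 held 26.1% in KO and 28.3% in WT, while MCL1 held 22.2% in KO and 19.9% in WT. All shares use summed exon lengths and would differ with other lengths. All 10 genes together had 10930 counts in KO and 11861 in WT.

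Ratios between members within a library do not depend on how the libraries are scaled, and 5 pairs of known binding partners or of functional rivals were compared in this way. The ratio of BCL2L1 to MCL1 counts was 0.893 in KO and 1.08 in WT, so the KO ratio was 0.827 of the WT ratio (exact conditional 95% counting interval 0.772 to 0.886). This interval excluded no difference, as the counting intervals of 51.9% of expressed genes did for single genes, and no background for pairs was computed. BAK1 to MCL1 stood at 0.164 in KO and 0.195 in WT, a KO ratio that was 0.840 of WT (interval 0.742 to 0.951). BAX to BCL2 was 16.2 in KO and 10.0 in WT, which is 1.62 times the WT ratio (interval 1.11 to 2.38) and rests on the few BCL2 counts. HRK to BCL2L1 was 0.00525 in KO and 0.0208 in WT, or 0.252 of the WT ratio (interval 0.137 to 0.438). That pair largely repeats the HRK difference, since the log2 ratio of BCL2L1 was -0.17, and rests on 16 HRK counts in KO. PMAIP1 to MCL1 was 0.311 in KO and 0.316 in WT, with an interval of 0.891 to 1.09 that included no difference.

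Genes around each member on its chromosome were examined to see whether a member's ratio was shared by its surroundings, in the gene order of GRCh38. Around HRK on chromosome 12, the 20 nearest expressed protein-coding genes had a median log2 ratio of 0.04, against -2.12 for HRK. Of these, 9 of 20 lay below 0 and 2 of 20 were called in either direction. Over all expressed genes, 48.8% lay below 0 and 2.92% were called. Around BCL2 on chromosome 18 the median was -0.07, with 12 of 20 below 0 and 0 of 20 called. PMAIP1 lies nearby and shares 17 of these neighbours, and its own log2 ratio was 0.08. The lowest neighbourhood was that of BIK on chromosome 22, with a median of -0.17, beside a log2 ratio of -0.12 for BIK itself. There, 17 of 20 lay below 0 and 2 of 20 were called.

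CREB1 binds the cAMP response element TGACGTCA or its 5-letter core TGACG, so promoters were searched for both on either strand, with the core contained in the longer motif. RefSeq promoter windows (GRCh38.p14, 250 bases before to 50 after the start) were matched for 8 members, all but BIK and MCL1. The full element was in 0 of these 8 genes and in 2.25% of 27305 genes. The core was in 5 of 8 genes (62.5%), namely BCL2, BCL2L1, BAX, PMAIP1 and HRK, and in 28.4% of all genes. Counted by window, it was in 5 of 13 windows of members and in 24.6% of 35116 windows. The 250 bases before the start are shown for HRK and BCL2, the members farthest from 0, and a short stretch around the core for the other 3, 5′ to 3′ on the strand of the gene, with the core in capitals (CGTCA is TGACG read on the other strand).
HRK, chr12:116881442-116881691, minus strand: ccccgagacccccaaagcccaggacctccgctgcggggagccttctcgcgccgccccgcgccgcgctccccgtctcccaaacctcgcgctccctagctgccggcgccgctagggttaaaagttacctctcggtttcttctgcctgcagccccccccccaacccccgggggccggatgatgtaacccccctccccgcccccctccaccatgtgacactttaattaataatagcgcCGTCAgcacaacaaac
BCL2, chr18:63319770-63320019, minus strand: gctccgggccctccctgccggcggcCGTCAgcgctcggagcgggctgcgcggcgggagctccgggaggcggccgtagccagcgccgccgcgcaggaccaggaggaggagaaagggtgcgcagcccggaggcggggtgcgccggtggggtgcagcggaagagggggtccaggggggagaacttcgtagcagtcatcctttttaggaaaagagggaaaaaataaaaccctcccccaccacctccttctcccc
BCL2L1, chr20:31724148-31724176, minus strand: ctatatataaacTGACGgacggatgaaat
BAX, chr19:48954729-48954757, plus strand: tggacagtcacgTGACGggaccaaacctc
PMAIP1, chr18:59899929-59899957, plus strand: ctagtttccctaCGTCAccagggaagttc
The core began at position -16 relative to the start in HRK, -55 in PMAIP1, -134 in BAX, -201 in BCL2L1 and -225 in BCL2. Log2 ratios of the members with the core were -2.12 (HRK), -0.70 (BCL2), -0.17 (BCL2L1), -0.01 (BAX) and 0.08 (PMAIP1). Those of the matched members without it were -0.32 (BBC3), -0.15 (BAK1) and 0.02 (BID). Whether the core bears on the ratios was not tested. A match in letters is a description of the window and does not show binding.

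Other genes of the apoptosis machinery were compared by 6 lists with 70 genes in all. Of the 15 further BCL2 family genes, 11 were expressed, 9 of 11 lay below 0, 0 were called in either direction, and the median log2 ratio was -0.16. Over all expressed genes, 48.8% lay below 0 and 2.92% were called, so 0 called in a list this short is near the background. BNIP3, a mitophagy receptor, had 357 counts in KO and 558 in WT (log2 ratio -0.57, interval -0.77 to -0.38). BAD, a BH3-only protein controlled by phosphorylation, had 737 counts in KO and 1095 in WT (log2 ratio -0.50, interval -0.63 to -0.36). BMF, another BH3-only gene, had 28 counts in KO and 44 in WT, with an interval that included 0 (-1.32 to 0.14). BMF passed the expression limit through the WT library alone (0.88 CPM in KO and 1.31 CPM in WT).

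Downstream of the mitochondria the lists held ratios in both directions, none of them past the 2-fold limit. The shares over all expressed genes were again 48.8% below 0 and 2.92% called, so 0 called is near the background in these lists too. All 13 genes of the apoptosome and caspases were expressed, with a median of -0.10, 8 of 13 below 0 and 0 called in either direction. The mitochondrial endonuclease ENDOG was at a log2 ratio of -0.82 (443 counts in KO and 825 in WT), cytochrome c (CYCS) at -0.49 (3059 counts in KO and 4509 in WT) and APAF1, the scaffold of the apoptosome, at 0.62 (858 counts in KO and 587 in WT). Of 6 expressed inhibitors of apoptosis 0 were called and 4 lay below 0, with a median of -0.08, and BIRC5, or survivin, had the ratio farthest from 0 (-0.82, 2658 counts in KO and 4944 in WT), followed by NAIP (0.18) and BIRC2 (-0.16). Of 7 mitochondrial partners, which include the VDAC channels, 6 lay below 0 and 0 were called, with a median of -0.09, VDAC1 at -0.38, VDAC3 at -0.24 and VDAC2 at -0.13.

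The death receptor pathway, which joins the family through BID, had 10 expressed genes with a median of -0.02, of which 1 was called lower and 0 higher, against 1.64% lower and 1.28% higher over all expressed genes. The called gene was CASP10, an initiator caspase, with 18 counts in KO and 69 in WT (log2 ratio -1.84, interval -2.70 to -1.10). Its mean was 1.31 CPM, in the range of 1 to 5 CPM where 5.18% of genes were called lower. Like HRK, CASP10 passed the expression limit through the WT library alone (0.56 CPM in KO and 2.05 CPM in WT). Next to it stood TNFRSF10A, a TRAIL receptor, at -0.46 (794 counts in KO and 1151 in WT) and CFLAR, an inhibitor of caspase-8, at 0.44 (649 counts in KO and 502 in WT). Of 15 expressed regulators of the members, 8 lay below 0 (48.8% over all expressed genes), the median was -0.06, and 1 was called lower (1.64% over all expressed genes). This was MYC, which can sensitize cells to apoptosis, at -1.12 (1889 counts in KO and 4334 in WT). TP73, a transcription factor that can activate pro-apoptotic genes, was not called and had a log2 ratio of 0.72 (interval 0.46 to 0.99), with 317 counts in KO and 202 in WT.

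**Figure D4:**
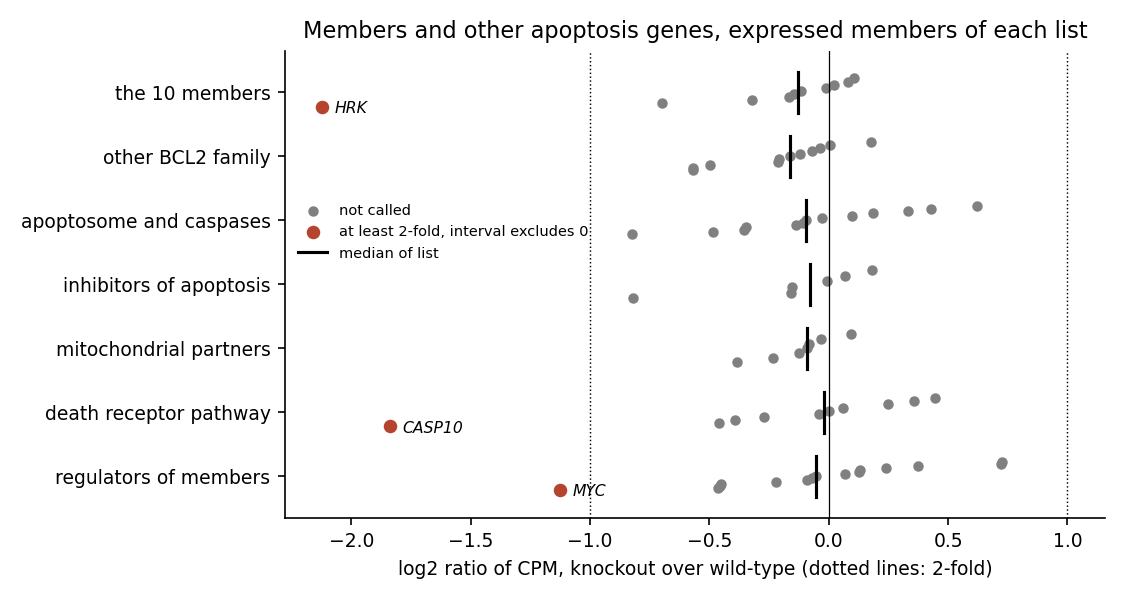
Log2 ratio of KO over WT for the 10 members and for the expressed genes of the 6 lists, with a black line at the median of each list and called genes in red. HRK, CASP10 and MYC lie beyond 2-fold on the lower side, and the medians of the 7 rows lie between -0.16 and -0.02.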

How the data were processed

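RNA was measured in 1 KO and 1 WT library. The authors deposited expected counts per gene, not scaled between libraries; the submitters' processing notes name RSEM 1.2.26, STAR 2.4.2a, cutadapt 2.0 and the build hg19. Neither the annotation nor the strand setting is given in the sources used here, and both columns were mapped by genotype name.

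Symbols were matched by Ensembl identifier without version (51996 of 57820, 89.9%). Lengths and gene order came from GENCODE 29 (GRCh38), so no gene coordinates are given beyond those of the RefSeq promoter windows; unmatched identifiers stayed in the totals. Expected counts were rounded, scaled by TMM in edgeR 4.0.16 (R 4.3.3) and compared as log2 ratios of CPM with a prior count of 0.5. Intervals are exact Clopper-Pearson 95% intervals of the conditional binomial, computed with scipy 1.17.1, and treat reads as independent molecules. No p-value was computed.

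The members and lists were chosen with earlier results of these data known. All members are named, and of each list the called genes and the 3 expressed genes farthest from 0; 1 gene so selected is not reported here. Alternatives were other scalings (total count, DESeq2 1.42.0 size factors, upper quartile, totals without the 5 highest genes), prior counts, rounding, expression filters, fold limits and gene lengths.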

Additional observations from a re-analysis of the deposited data

How the results depend on the processing

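Over 6 other scalings, priors or roundings, 58 of 60 member values stayed inside their own counting interval. The exceptions were BCL2L1 (-0.10) and MCL1 (0.18) with total-count scaling, and the direction of BAX turned as given above. HRK was called lower under all 4 other scalings. The number of members called lower was 2 at 1.5-fold, 4 by the interval alone and 0 at a mean of at least 5 CPM, a filter that HRK does not pass; the number called higher was 1 by the interval alone. Over all genes, 451 were higher and 635 lower without an expression filter, 75 and 62 at a mean of at least 5 CPM, and 90 higher at 1 to 5 CPM; totals without the 5 highest genes gave 182 in each direction. With the longest transcript as gene length, 6 members in KO and 5 in WT kept their rank, and BCL2L1 and MCL1 remained first and second. No paired analysis was possible because each group has 1 library, and for the same reason no library could be left out. Depth limits HRK and BCL2 most, with 16 and 49 counts in KO.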
